A study of Mus musculus with 36 samples.

Results

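Cells hold their cholesterol level steady by making it, storing it and exporting it, and the 7 genes described here stand at the turning points of that balance. Srebf2 encodes SREBP2, the membrane-bound transcription factor that is cleaved when sterols are scarce and then switches on sterol synthesis and uptake. Its classic targets include Hmgcs1, the HMG-CoA synthase that feeds the mevalonate pathway, and Sqle, the squalene epoxidase that commits the pathway to sterols. Ch25h encodes the hydroxylase that makes an oxysterol, which holds SREBP2 back and is known as an interferon- and TLR-responsive product of macrophages and dendritic cells. Oxysterols also activate LXR alpha, the nuclear receptor encoded by Nr1h3, which drives the lipid exporters Abca1 and Abcg1.

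The loci were read in chromatin accessibility profiles (ATAC-seq, in which a transposase cuts open DNA) of bone marrow-derived dendritic cells from female C57BL/6J mice aged 6 to 8 weeks. Every group shared culture in GM-CSF at 15 ng/mL, a condition that yields a mixed myeloid culture rather than a single sorted type, and the stimulated groups then had 6 h of ligand. The 18 groups of 2 libraries were an unstimulated control (Ctrl), 6 single ligands, 8 pairs and 3 triplets. The single ligands were labelled PAM (P), LPS (L, bacterial lipopolysaccharide), HMW (H), 3',3'-cGAMP (cG, a cyclic dinucleotide), SeV (S) and zymosan depleted (Z, a yeast cell wall preparation). The pairs were PL, PH, LH, PS, PcG, ScG, ZS and ZcG, and the triplets PLH, PScG and ZScG. The labels do not say whether the 2 libraries of a group came from separate cultures or animals, so p-values measure only the spread between these libraries. In bulk chromatin, a change in the mix of cells and a change of accessibility within cells cannot be told apart.

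Of 119751 deposited peaks (mm10), 78 overlapped the body of a member gene or the 10000 bp to either side of it. Abca1 held 26 of them, Abcg1 21, Nr1h3 9, Srebf2 7, Ch25h 6, Sqle 6 and Hmgcs1 3. Peak widths ran from 200 to 1923 bp. All 78 passed the filter on low counts, as did 119464 peaks in all. Levels below are counts scaled to library size (CPM, on the TMM scale), and a position in kb is the distance of a peak's middle from the gene start, with a plus sign downstream. No gene strand was at hand for Abcg1 and Sqle, so their distances run from the end with the lower coordinate.

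The RefSeq table of promoters (GRCm38.p6) had an entry for 5 of the 7 members. The 250 bases before the start are printed for 3 of them, because their short motifs bear on the roles above. Capitals mark a sterol response element (SRE, searched as TCACNCCA), a CCAAT box (here read as ATTGG, its opposite strand) and a cyclic AMP response element (CRE, TGACGTCA). Each is given 5′ to 3′ on the strand of the gene: Hmgcs1 is chr13:119690101-119690350 (plus), Srebf2 is chr15:82147019-82147268 (plus) and Ch25h is chr19:34475149-34475398 (minus).
Hmgcs1: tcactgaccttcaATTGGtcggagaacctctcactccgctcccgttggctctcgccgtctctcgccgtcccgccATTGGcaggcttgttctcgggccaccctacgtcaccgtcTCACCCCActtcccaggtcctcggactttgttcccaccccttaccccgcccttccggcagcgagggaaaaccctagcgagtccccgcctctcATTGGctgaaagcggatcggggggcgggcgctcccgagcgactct
Srebf2: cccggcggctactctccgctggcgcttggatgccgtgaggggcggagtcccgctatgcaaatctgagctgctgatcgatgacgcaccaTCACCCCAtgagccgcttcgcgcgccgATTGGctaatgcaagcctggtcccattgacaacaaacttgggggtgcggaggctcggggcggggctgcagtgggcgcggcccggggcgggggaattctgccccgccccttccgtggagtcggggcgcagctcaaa
Ch25h: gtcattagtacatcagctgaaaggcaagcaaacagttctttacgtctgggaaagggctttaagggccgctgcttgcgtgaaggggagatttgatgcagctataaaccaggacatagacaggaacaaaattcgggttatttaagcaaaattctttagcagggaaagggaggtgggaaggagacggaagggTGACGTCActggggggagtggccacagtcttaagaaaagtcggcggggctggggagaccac

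The SRE match lay at bases -137 to -130 of Hmgcs1 and at -162 to -155 of Srebf2, counted from the start. Of 32851 promoter windows of the same length, 3.67% held such a match on either strand. A CCAAT box was found at 3 places in Hmgcs1 and at 1 in Srebf2, and in 33.8% of all windows. The CRE of Ch25h lay at -61 to -54, and 1.55% of windows held that palindrome. Abca1 held 2 GC boxes (GGGCGG, found in 32.7% of windows) and none of the other motifs, Hmgcs1 held 2 and Srebf2 4 GC boxes, and Nr1h3 held none of the 8 motifs searched. The other 4 were AP-1 (TGANTCA, 6.75% of windows), kappaB (GGGANNTTCC, 1.21%), an interferon-type element (GAAANNGAAA, 2.98%) and the nuclear receptor half-site AGGTCA (14.0%), all on both strands, and matches can overlap one another; of these, Hmgcs1 held a half-site at -246 to -241, and GC boxes and the half-site are not in capitals. The motifs were chosen after the sequences had been seen, and a match is a description of letters and not of binding. A microRNA, miR-33-5p, lies within Srebf2 and is known to repress Abca1, and its mature sequence is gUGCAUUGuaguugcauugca, with the seed in capitals. Its hairpin at chr15:82198122-82198190 was 1246 bp from the nearest member peak, and that peak, at 2.40 and 3.09 CPM in control, passed the test in 0 of 17 stimulations.

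Total counts per library ran from 19097027 to 39977088 (median 26597239), and from 8181254 to 21985891 (median 12514174) without the peak that spans the mitochondrial genome. The 78 member peaks together held 3183 to 12281 counts per library. The mitochondrial share split the groups: its group mean was 58.3% to 63.0% in Ctrl, Z, ZcG, ScG and ZScG and 44.4% to 54.5% in the other 13 groups. The share of the remaining counts in gene-start peaks moved with it, with group means of 21.2% to 22.4% in those 5 groups and of 23.0% to 27.2% in the other 13. Single libraries overlapped: the mitochondrial share of ZS 1 (58.1%), one of the 13, exceeded those of ScG 1 (57.3%) and ZScG 1 (57.9%). The gene-start share of LH 2, also of the 13, was 22.3%, below ScG 1 at 23.2%. For a comparison of control with any of the 13, stimulation and this split cannot be told apart, so the 5 groups are called the high-mitochondrial groups and values within each set are given beside the results. All 12 dendritic and myeloid markers had a peak (summed group level 157 to 199 CPM), as did 2 of 5 T cell (12.0 to 17.6 CPM), 2 of 4 B cell (4.17 to 8.51 CPM), 0 of 3 neutrophil and 1 of 3 erythroid markers (2.13 to 5.29 CPM). Their part in the results was not tested.

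A peak is called when its adjusted p is under 0.05 in edgeR's quasi-likelihood test, adjusted over all 119464 peaks within a comparison. Against control, 50 of the 78 member peaks were called in at least 1 of the 17 stimulations, 29 of them only higher, 19 only lower and 2 both. Of all 119464 peaks, 66.6% were called in at least 1, 32.5% only higher and 31.6% only lower. Over the 17 stimulations there were 262 calls (159 higher and 103 lower) in 1326 tests, or 19.8%, beside 25.2% of all peaks. The members' share was no higher than that of peaks in general, so what follows concerns which peaks moved and in which groups. Without the control library Ctrl 1 there were 173 calls.

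By stimulation, PAM had 11 member calls (20.5% of all peaks called), LPS 20 (22.3%), HMW 4 (10.7%), SeV 15 (27.9%), cGAMP 16 (23.3%) and zymosan 3 (5.91%). Among the pairs, PL had 16 (27.3%), PH 17 (26.3%), LH 17 (21.8%), PS 21 (33.4%), PcG 23 (32.9%), ScG 15 (27.7%), ZS 13 (28.3%) and ZcG 9 (21.6%). The triplet PLH had 20 (29.7%), and PScG and ZScG had 21 each (37.1% and 32.3%). These 17 comparisons use the same 2 control libraries. All 4 HMW calls were lower, 15 of the 20 LPS calls and 9 of the 11 PAM calls were higher, beside 51.2% lower, 50.4% higher and 54.0% higher of all peaks called in those comparisons. These counts are small, the difference between ligands was not tested, and without Ctrl 1 there were 1, 8 and 5 calls.

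**Figure D1:**
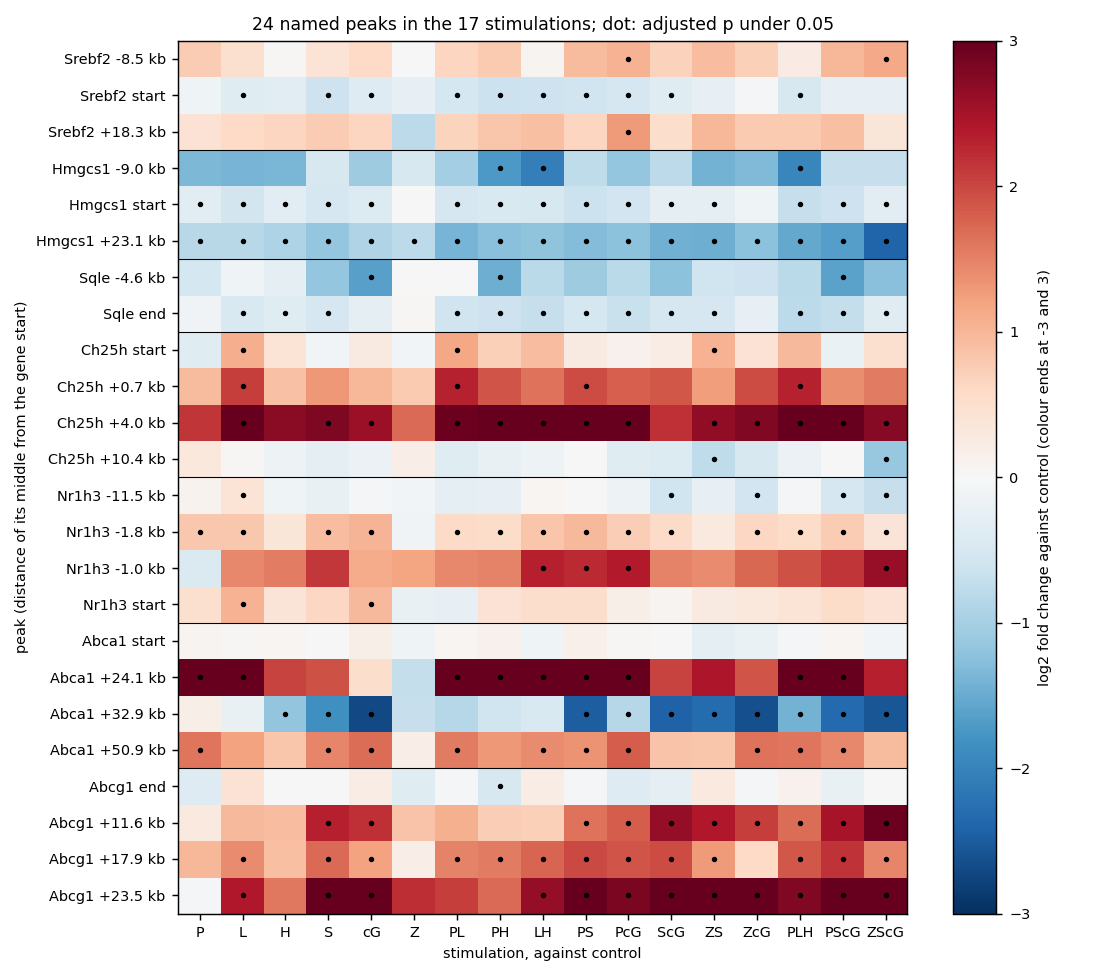
Log2 fold change against control (colour) of the 24 peaks named by the rule (rows) in the 17 stimulations (columns), with a dot where the adjusted p is under 0.05. The rows of Hmgcs1, Sqle and Srebf2 start peaks are low across most columns, whereas rows within Abca1 and Abcg1 differ between columns.

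The start peaks of Hmgcs1 and Srebf2 and the end peak of Sqle lost accessibility against control in most stimulations. In the 10 comparisons among PAM, LPS, HMW, SeV and cGAMP, the 3 Hmgcs1 peaks had 0 calls. The 6 Sqle peaks had 3 and the 7 Srebf2 peaks 4. Over all peaks, 11.0% of tests in these comparisons were called. The Hmgcs1 start peak (chr13:119689812-119691189), which spans the SRE printed above, was the strongest of all member peaks, with 110 and 107 CPM in the control libraries. PLH gave 67.4 and 67.0 CPM, which is -0.69 on the log2 scale against control (SE 0.09, adjusted p = 9.5e-11), and PS gave 70.2 and 68.0 CPM (-0.65, SE 0.09, adjusted p = 4.3e-10). In both groups each library lay well below each control library. Zymosan, at 101 and 115 CPM, overlapped control, and ZcG, at 101 and 95.8 CPM, did not pass the test (-0.14, SE 0.09, adjusted p = 0.30). The peak was called lower in the other 15 stimulations, PAM (-0.31), HMW (-0.33), ScG (-0.28) and ZS (-0.29) being the smallest of them. Those 4 were no longer called without Ctrl 1 (adjusted p of 0.058, 0.079, 0.089 and 0.068), and the other 11 were called with any single library left out. Within the high-mitochondrial groups, ScG and ZScG (86.0 and 84.9 CPM) were lower than control, and Z and ZcG were not called.

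The Sqle peak at the lower-coordinate gene end (chr15:59314415-59315578) gave 56.7 and 51.2 CPM in control. It gave 33.1 and 29.3 CPM in PLH, or -0.79 on the log2 scale (SE 0.11, adjusted p = 2.1e-09), and 32.8 and 32.7 CPM in PScG (-0.72, SE 0.11, adjusted p = 3.2e-08). PAM alone, at 48.8 and 51.4 CPM, and zymosan alone, at 48.3 and 61.3 CPM, overlapped control. The peak was called lower in 13 stimulations, all but PAM, cGAMP, Z and ZcG. Of these, 9 were called with any single library left out; the calls for LPS, HMW, ScG and ZScG were lost in turn without L 1 (adjusted p = 0.098), Ctrl 1 (0.22), ScG 2 (0.073) and Ctrl 1 (0.13).

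The Srebf2 start peak (chr15:82146627-82148069), over the other SRE, stood at 38.5 and 40.7 CPM in control. SeV gave 24.7 and 26.7 CPM (log2 fold change -0.62, SE 0.12, adjusted p = 8.4e-06) and PH gave 28.4 and 22.4 CPM (-0.64, SE 0.12, adjusted p = 4.1e-06). LH, at 26.4 and 25.2 CPM, was as low (-0.62, SE 0.12, adjusted p = 1.7e-05). PAM (36.2 and 36.6 CPM), ZcG (37.9 and 38.1 CPM) and PScG (36.1 and 31.3 CPM) lay nearer to control and were not called, nor were HMW, Z, ZS and ZScG. The 10 calls, all lower, were L, S, cG, PL, PH, LH, PS, PcG, ScG and PLH. Without Ctrl 2 the calls for L, cG and ScG were lost (adjusted p of 0.13, 0.082 and 0.10). Of the 7 Srebf2 peaks, 2 were called only higher, beside 32.5% of all peaks. The peak at -8.5 kb, inside the neighbouring gene Ccdc134, rose in PcG (1.03, adjusted p = 0.043) and ZScG (1.14, adjusted p = 0.037). The peak at +18.3 kb rose in PcG (1.28, adjusted p = 0.037). Each of these calls was lost without at least 1 library.

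The falls at the Hmgcs1 and Srebf2 starts and the Sqle end have to be read against other gene starts, which fell too on this scale. Over the 17 stimulations, 23.3% of tests at 9554 peaks at the start of a protein-coding gene were called lower, and 32.5% at the 4535 of them with at least 20 CPM, beside 12.3% of tests at all peaks. Among those 4535 peaks, the fold change of Hmgcs1 was lower than all but 7.96% in PLH, 8.67% in PS and 10.5% in LPS. For Sqle the share was 3.73% in LH, 4.48% in ScG and 4.50% in PLH, and for Srebf2 it was 4.30% in SeV, 6.02% in LH and 6.68% in PH. These stimulations were selected for each gene from the 17 and do not stand for the others. In PAM the same shares were 36.1% for Hmgcs1, 67.5% for Sqle and 65.4% for Srebf2. Sqle and Srebf2 were thus not among the lower ones there, whereas Hmgcs1 (-0.31) lay below the median of the 4535 peaks (-0.22). The scaling also matters: with libraries scaled by total count instead of TMM, 4 of the 15 Hmgcs1 calls, 5 of the 13 Sqle calls and 0 of the 10 Srebf2 calls remained, and PAM at Hmgcs1 and LPS at Srebf2 turned to positive values, 0.013 and 0.070, that were not called. That scaling moved the median of all peaks by up to 0.45. With offsets that depend on abundance, 10, 11 and 9 of these calls remained.

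**Figure D2:**
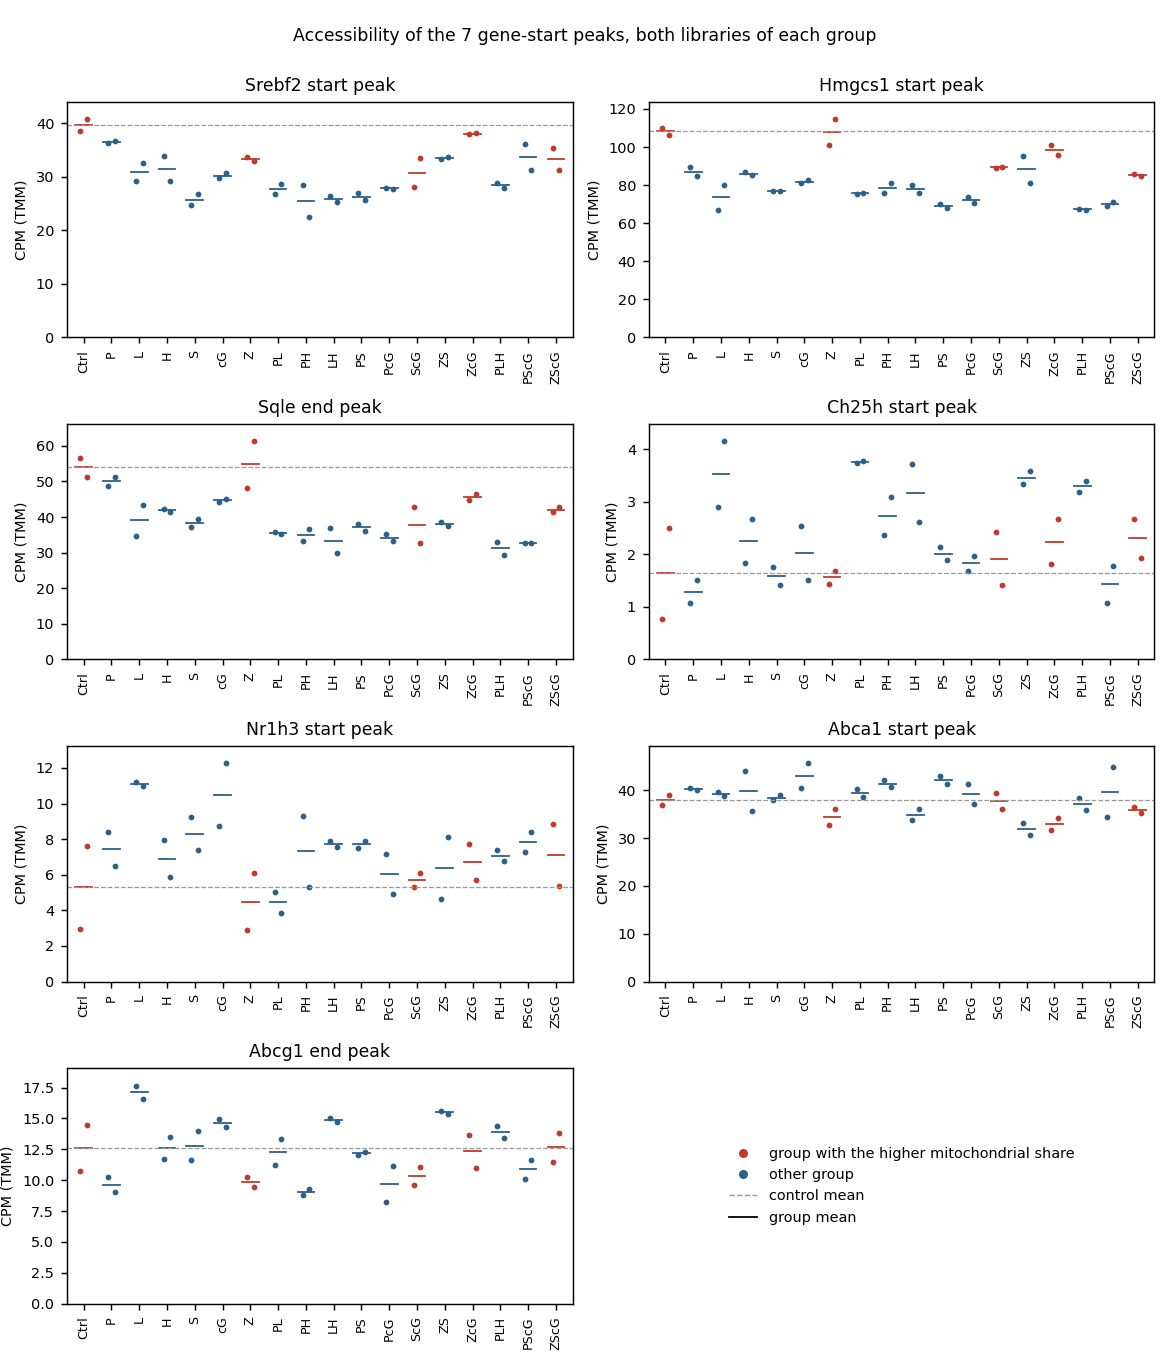
Accessibility (CPM, TMM scale) of the 7 gene-start peaks, with both libraries of each group as points; red marks the 5 groups with the higher mitochondrial share and blue the other 13. Control stands among the highest points for Hmgcs1, Sqle and Srebf2, whereas Abca1 stays between group means of 31.9 and 43.1 CPM.

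A second Hmgcs1 peak (chr13:119712990-119713860), 23.1 kb past the start, beyond the gene's end and inside the neighbouring gene Nim1k, was the only member peak called in all 17 stimulations, each time lower. Control gave 26.3 and 25.0 CPM. The smallest drop was in zymosan, at 13.3 and 16.5 CPM (log2 fold change -0.78, SE 0.18, adjusted p = 0.0012), and the largest in ZScG, at 4.25 and 5.52 CPM (-2.41, SE 0.21, adjusted p = 7.2e-21). No stimulated library reached a control library. The zymosan call was lost without Z 1 (adjusted p = 0.078), and the other 16 were called with any single library left out. The loss was seen within the high-mitochondrial groups, whose other 4 had group means of 4.88 to 14.9 CPM, and in the other 13, at 8.10 to 14.4 CPM. ZScG was also lower than ZcG, within the same set (-1.17, adjusted p = 0.00060), though not without ZScG 1 (adjusted p = 0.064). The third Hmgcs1 peak, 9.0 kb upstream, was called lower in PH, LH and PLH, and of the other Sqle peaks only the one at -4.6 kb was called, lower in cG, PH and PScG. None of these 6 calls held whichever library was left out: the first 3 were lost without Ctrl 1 (adjusted p of up to 0.12) and the others without Ctrl 2 (up to 0.44), and the Sqle calls were lost under total-count scaling too.

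Ch25h, the oxysterol-producing hydroxylase, has a single exon, and its start peak (chr19:34474601-34475310) was weak, with 0.765 and 2.51 CPM in control, from 7 and 26 counts. LPS gave 2.90 and 4.15 CPM (log2 fold change 1.08, SE 0.40, adjusted p = 0.039), PL 3.73 and 3.77 CPM (1.16, SE 0.41, adjusted p = 0.024) and ZS 3.33 and 3.59 CPM (1.05, SE 0.42, adjusted p = 0.048). PAM, at 1.07 and 1.52 CPM, and PScG, at 1.08 and 1.78 CPM, lay within the range of control. The 2 control libraries stood far apart here, and all 3 calls were lost without Ctrl 1, with an adjusted p of up to 0.55 over single libraries left out. Comparisons that do not use control separated LPS from PAM at this peak: PAM was lower than LPS by 1.45 on the log2 scale (adjusted p = 0.0070), and PL was higher than PAM by 1.53 (adjusted p = 0.0067). Both were lost without P 1 (adjusted p of up to 0.16 and 0.11).

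On the 3′ side of Ch25h, a peak at +4.0 kb (chr19:34471051-34471288) was nearly closed in control, with 0 and 0.193 CPM, or 2 counts in all. It was called higher in 13 stimulations, all but PAM, HMW, Z and ScG. PS gave 1.88 and 1.25 CPM, or 61 counts, a ratio of 14.6 to control with a 95% interval of 3.88 to 123 for counting error. LPS gave 1.27 and 1.35 CPM, or 43 counts, a ratio of 12.8 (3.34 to 109). Every stimulated library had a higher CPM than either control library. Without Ctrl 1, 10 of the 13 calls were lost (LPS at an adjusted p of 0.060), and LH, PS and PScG were still called. Of the other 4 Ch25h peaks, the one at +0.7 kb was called higher in L, PL, PS and PLH, and the one at +10.4 kb lower in ZS and ZScG. The first 4 were all lost without Ctrl 1 (adjusted p of up to 0.30), ZS without any of its 4 libraries (up to 0.25) and ZScG without ZScG 2 (0.11), and DESeq2 kept 2 of the first 4 and 1 of the other 2.

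Nr1h3, the LXR alpha gene, gained accessibility just upstream of its start in nearly all stimulations. The peak at -1.8 kb (chr2:91196469-91197348), inside the annotated gene, which reaches upstream of the starts used here, had 19.3 and 15.5 CPM in control. cGAMP gave 33.5 and 37.0 CPM (log2 fold change 1.02, SE 0.14, adjusted p = 6.7e-10), SeV 36.2 and 30.1 CPM (0.93, SE 0.14, adjusted p = 1.0e-08) and PS 30.6 and 37.0 CPM (0.96, SE 0.14, adjusted p = 1.3e-09). PAM and LPS each rose by 0.80 (adjusted p of 1.6e-06 and 1.3e-06). Zymosan, whose lower library gave 13.9 CPM and whose other library lay between the control libraries, was not called, and HMW (0.36, adjusted p = 0.090) and ZS (0.29, adjusted p = 0.13) were not called. In the 14 called stimulations the lowest single library was ZScG 2, at 19.4 CPM, so every library of these groups lay above both control libraries, ZScG 2 barely.

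Within the high-mitochondrial groups that peak was higher in ScG (0.59), ZcG (0.63) and ZScG (0.39) than in control, although each of the 3 was lost without Ctrl 2 (adjusted p of 0.068, 0.0525 and 0.35), and ZScG also without ZScG 1 (0.59). Of the 14 calls, 8 were kept with any single library left out, and PL, PH and PLH were lost without Ctrl 2 (adjusted p of 0.076, 0.11 and 0.092) as well as without the first library of their own group (0.36, 0.091 and 0.096). All 14 were also called under total-count scaling. The Nr1h3 start peak itself (chr2:91194531-91195378) gave 2.95 and 7.62 CPM in control and was called higher in LPS, at 11.2 and 11.0 CPM (1.05, SE 0.26, adjusted p = 0.0013), and in cGAMP, at 8.75 and 12.3 CPM (0.97, SE 0.27, adjusted p = 0.0036). Neither was called without Ctrl 1 (adjusted p of 0.23 and up to 0.32), the lower of the control libraries. A peak at -1.0 kb, with 0 and 0.386 CPM in control, was called higher in 4 stimulations. Each of these calls was lost without at least 1 library. At -11.5 kb, a peak inside the neighbouring gene Acp2 was higher in LPS (0.42, adjusted p = 0.044). It was lower in ScG, ZcG, PScG and ZScG. The LPS call was lost without any of the 4 libraries compared (adjusted p of up to 0.26). Of all 5 calls at this peak, 1 was kept whichever single library was left out, and 4 were kept under total-count scaling.

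Abca1, the transporter that loads cholesterol onto lipid-poor apolipoprotein A-I, had no called change at its start, while peaks inside the gene moved in opposite directions. The start peak (chr4:53158510-53160432), the widest member peak, had 37.0 and 39.1 CPM in control. It was called in 0 of 17 stimulations, with log2 fold changes from -0.26 in ZS to 0.18 in cGAMP, 1 of 17 had an unadjusted p under 0.05, and DESeq2 called 0. Relative to the fall of other gene starts on the TMM scale, this level was high in PAM, HMW and PH, where 87.0%, 89.0% and 92.3% of the 4535 strong start peaks had a lower fold change. These stimulations were selected from the 17 and do not stand for the others. Under total-count scaling, 11 stimulations were called higher, and with abundance-dependent offsets 2 were. Of the 25 other Abca1 peaks, 19 were called in at least 1 stimulation (66.6% of all peaks were). Of the 25, 8 were called only higher, 10 only lower and 1 in both directions. Of all peaks, 32.5% were called only higher and 31.6% only lower, so movement in both directions was common among peaks in general.

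The peak 32.9 kb into Abca1 (chr4:53126694-53127243) was called lower in all 9 groups given SeV or cGAMP, and not in PAM, LPS or their pair. Control gave 6.23 and 4.73 CPM, PAM 4.65 and 7.58 CPM, LPS 4.31 and 4.96 CPM and HMW 2.48 and 2.33 CPM. SeV gave 1.70 and 1.35 CPM, or -1.83 on the log2 scale (SE 0.38, adjusted p = 4.4e-05). cGAMP gave 1.19 and 0.502 CPM (-2.70, SE 0.43, adjusted p = 8.6e-08). No SeV or cGAMP library reached a control, PAM or LPS library. The groups PS, ScG, ZS, ZcG, PScG and ZScG were called lower too, between -2.30 and -2.64, and PcG, at 2.34 and 3.76 CPM, less so (-0.85, adjusted p = 0.0498).

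HMW (-1.18, adjusted p = 0.022) and PLH (-1.43, adjusted p = 0.0013) completed the 11 calls, and PAM, LPS, Z, PL, PH and LH were not called. Of the 11, 8 were called with any single library left out, whereas HMW was lost without Ctrl 1, H 1 or H 2 (adjusted p of up to 0.21), PcG without Ctrl 1, Ctrl 2 or PcG 1 (up to 0.40) and PLH without PLH 1 (0.074). Within the high-mitochondrial set, Z gave 2.89 and 3.78 CPM, but ScG 1.12 and 0.874 CPM, ZcG 0.483 and 1.22 CPM and ZScG 1.12 and 0.689 CPM.

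Comparisons among single ligands, which do not use control and stay within the 13 groups, also set PAM and LPS apart from SeV and cGAMP at this Abca1 peak. PAM was higher than cGAMP by 2.86 (SE 0.42, adjusted p = 3.9e-09) and higher than SeV by 2.00 (adjusted p = 4.4e-06). LPS was higher than cGAMP by 2.46 (adjusted p = 3.0e-06) and than SeV by 1.60 (adjusted p = 0.00094). All 4 were called with any single library left out. HMW lay between: PAM was higher than HMW by 1.34 (adjusted p = 0.0041), and HMW was higher than cGAMP by 1.52 (adjusted p = 0.020). Both of these calls were lost without H 2. Adding SeV to PAM lowered the peak by 2.65 against PAM (adjusted p = 7.3e-09), also with any library left out. Adding PAM to cGAMP raised it by 1.85 against cGAMP (adjusted p = 0.0012), a call that was lost without cG 2 (adjusted p = 0.13) or PcG 2 (0.072).

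Other peaks inside Abca1 rose with PAM and LPS. The peak at +41.1 kb (chr4:53118426-53119202) had 4.26 and 4.53 CPM in control, 8.47 and 11.5 CPM in PAM (log2 fold change 1.18, SE 0.25, adjusted p = 6.6e-05) and 10.8 and 10.0 CPM in PLH (1.24, SE 0.24, adjusted p = 1.3e-05). SeV, at 3.47 and 4.31 CPM, and ZScG, at 2.79 and 3.86 CPM, were not called. This peak and the 3 described with it at +25.5, +10.8 and +9.1 kb were singled out after their values had been seen. It was called higher in P, L, Z, PL, PH, LH, PS, PcG and PLH, and 6 of these 9 calls were kept with any single library left out. The call for Z was lost without any of its 4 libraries (adjusted p of up to 0.14), LH without LH 1 (0.074) and PS without Ctrl 1, Ctrl 2 or PS 2 (up to 0.098). PAM exceeded SeV here by 1.36 (adjusted p = 6.8e-07) and LPS exceeded SeV by 1.20 (adjusted p = 3.8e-05), both with any library left out.

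At +25.5 kb (chr4:53134074-53134620) control gave 0.328 and 1.16 CPM and PAM 3.13 and 2.82 CPM (1.95, adjusted p = 0.0015). All 9 of its calls were lost without Ctrl 1 (PAM at an adjusted p of 0.11), whereas PAM against SeV, a difference of 2.22 (adjusted p = 6.9e-05), was kept with any library left out. The peak at +9.1 kb was called higher in 7 stimulations and the one at +10.8 kb lower in cG, ScG, ZS and ZScG. Whichever single library was left out, 2 calls were kept at each: at +9.1 kb 5 were lost without Ctrl 2 (adjusted p of up to 0.18), and at +10.8 kb cG and ZS without Ctrl 1 (0.35 and 0.094). The 2 other rule-named peaks rose: the one at +50.9 kb in 10 stimulations, 9 of which were lost without Ctrl 1 and without Ctrl 2 (PcG was not), and the one at +24.1 kb in 9. In the latter, control held 2 counts and PH 71, a ratio of 21.0 (95% interval 5.60 to 177), and 2 of its 9 calls were kept whichever library was left out (6 were lost without Ctrl 2 and PL without PL 1, at an adjusted p of up to 0.11).

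**Figure D3:**
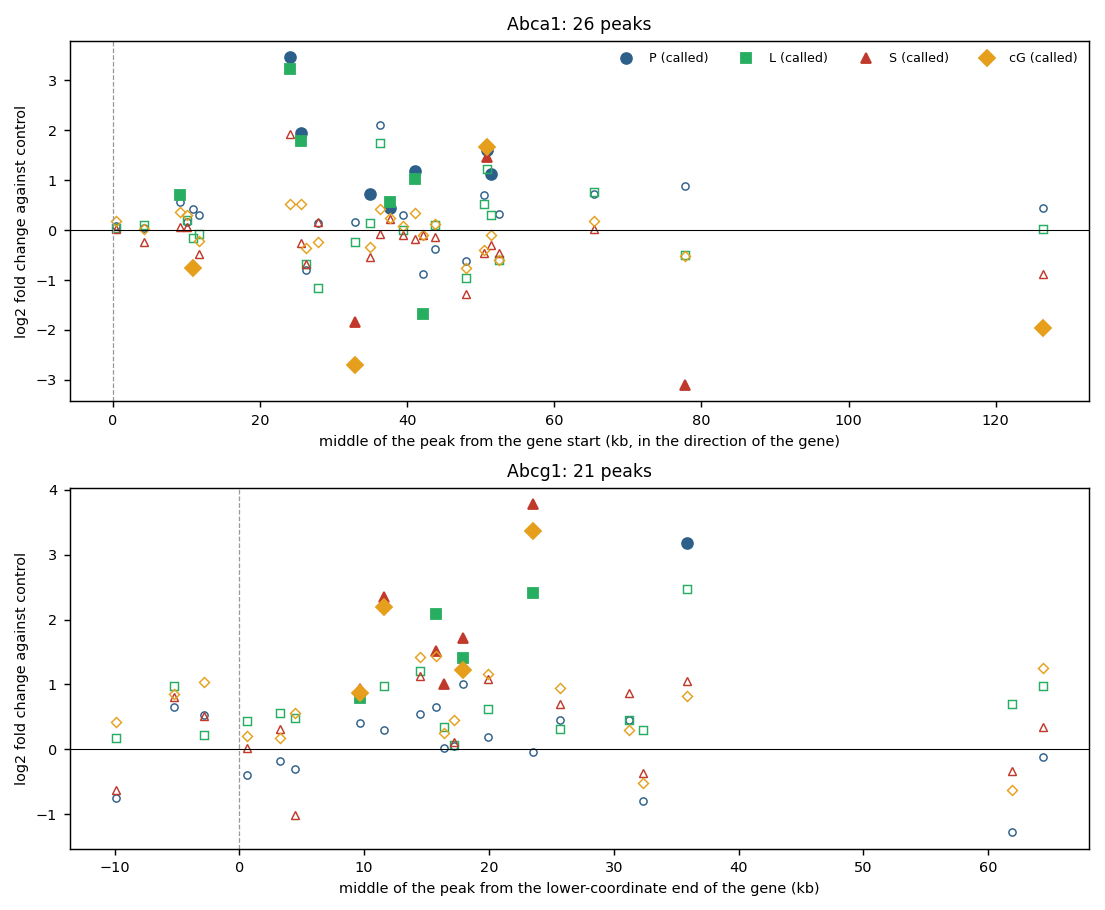
Log2 fold change against control of each peak along Abca1 (26 peaks) and Abcg1 (21 peaks), by distance in kb, for PAM (P), LPS (L), SeV (S) and cGAMP (cG); filled symbols are called. In Abca1 the filled cGAMP point at +32.9 kb (-2.70) lies far below those of PAM at +41.1 kb (1.18), and in Abcg1 the SeV points at +11.6 kb (2.34) and +17.9 kb (1.71) lie above 0.

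Abcg1, the partner transporter that exports cholesterol to formed lipoprotein particles, showed gains at several peaks inside the gene, in largely overlapping sets of stimulations. The peak at the lower-coordinate end (chr17:31057383-31059180) had 10.7 and 14.5 CPM in control and was called in a single stimulation, PH, at 8.82 and 9.27 CPM (log2 fold change -0.48, adjusted p = 0.037). That call was lost without Ctrl 2 (adjusted p = 0.51), PH 1 or PH 2, and under DESeq2, only the groups compared, abundance-dependent offsets and each of the other 2 scalings (adjusted p = 0.60 with total counts). Total-count scaling instead called 5 stimulations higher and 0 lower at this end, and median-of-ratios factors, DESeq2 and only the groups compared each called 1 higher and 0 lower. LPS gave 17.7 and 16.6 CPM at this end (0.43, adjusted p = 0.056), and exceeded PAM, at 10.2 and 9.03 CPM, by 0.83 (adjusted p = 0.00015, with any library left out).

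The peak at +11.6 kb (chr17:31069102-31069514) had 0.656 and 0.386 CPM in control, 0.839 and 0.433 CPM in PAM and 1.13 and 0.917 CPM in LPS. SeV gave 3.21 and 2.09 CPM (2.34, SE 0.55, adjusted p = 0.00039), cGAMP 3.10 and 1.72 CPM (adjusted p = 0.0015) and ZScG 4.58 and 3.45 CPM (2.95, SE 0.56, adjusted p = 5.4e-06). It was called higher in 10 stimulations: S, cG, PS, PcG, ScG, ZS, ZcG, PLH, PScG and ZScG. Apart from PLH, those are the groups given SeV or cGAMP. SeV, ScG, PScG and ZScG were called with any single library left out, and cGAMP was not without Ctrl 2 or cG 1 (adjusted p of up to 0.059). Within the high-mitochondrial groups, Z gave 1.05 and 0.839 CPM and ScG 3.72 and 2.73 CPM.

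The peak at +23.5 kb (chr17:31081016-31081376) held 3 counts in the 2 control libraries, at 0 and 0.289 CPM, and PAM gave 0.305 and 0 CPM. SeV gave 1.90 and 2.52 CPM, a count ratio of 14.4 to control (95% interval 4.74 to 71.7), and ScG 2.88 and 2.19 CPM, a ratio of 16.7 (5.39 to 83.5). It was called higher in 12 stimulations, all but P, H, Z, PL and PH, and 6 of the 12 were lost without Ctrl 1, PS at the lowest adjusted p among them (0.054). PAM was lower than SeV by 3.81 (adjusted p = 5.1e-06) and lower than cGAMP by 3.40 (adjusted p = 0.00011), both with any library left out.

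Another peak, at +17.9 kb (chr17:31075330-31075950), rose more widely: control gave 0.656 and 1.74 CPM and PScG 4.94 and 6.12 CPM (2.18, SE 0.39, adjusted p = 1.4e-06). It was called higher in 13 stimulations, all but P, H, Z and ZcG. Of these, 8 were lost without Ctrl 1, among them LPS (adjusted p = 0.21) and SeV (0.059). Over all Abcg1 peaks, 11 of 21 were called in at least 1 stimulation, beside 66.6% of all peaks. Called only higher were 10 of the 21, beside 32.5% of all peaks.

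**Figure D4:**
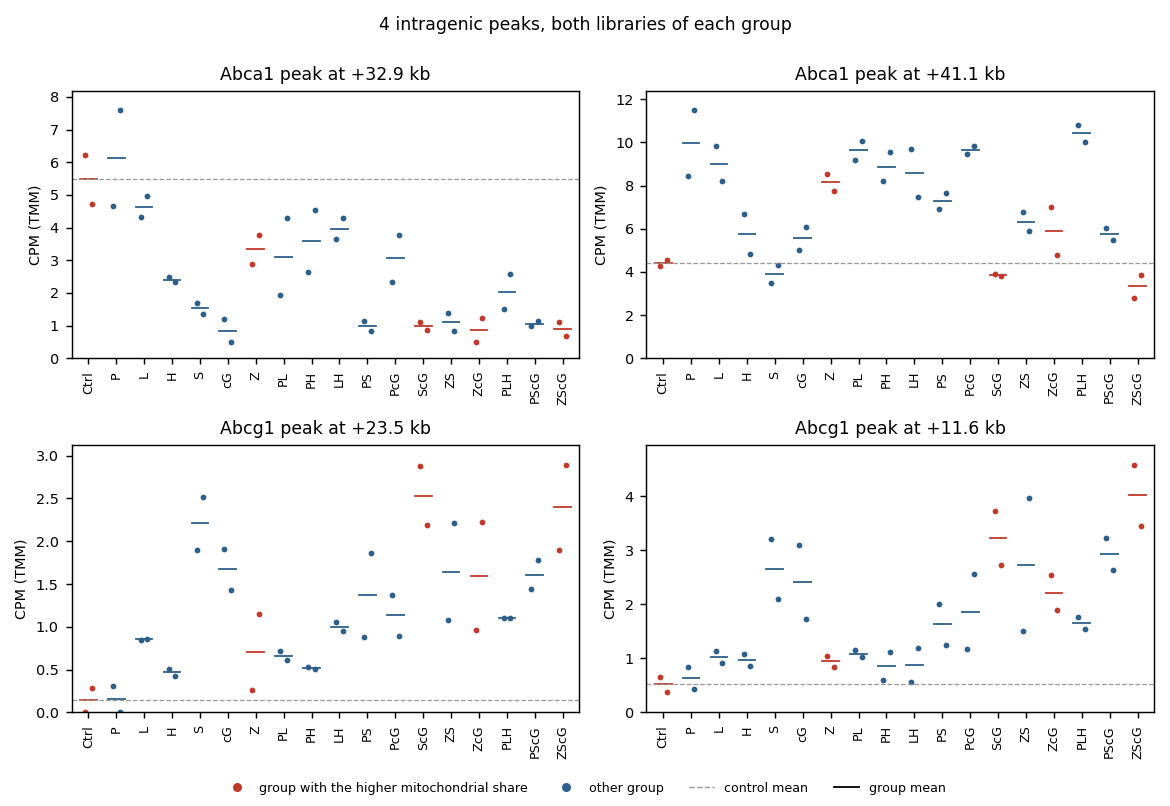
Accessibility (CPM, TMM scale) of 2 peaks inside Abca1 and 2 inside Abcg1, with both libraries of each group as points; red marks the 5 groups with the higher mitochondrial share. The Abca1 peak at +32.9 kb is low in the SeV and cGAMP groups of both colours, though less so in PcG. HMW and PLH also lie below control there. The Abcg1 peak at +11.6 kb is high in the SeV and cGAMP groups of both colours, and also in PLH.

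Across the 18 group means, log2 CPM of the Abca1 peak at +32.9 kb and the Abcg1 peak at +11.6 kb ran opposite to each other (Pearson r = -0.89), and the 2 Abcg1 peaks at +11.6 and +23.5 kb ran together (r = 0.92). The Hmgcs1 start correlated with those of Sqle (r = 0.85) and Srebf2 (r = 0.70). These are descriptions over 18 groups that share libraries' depth and scaling. Among 31062 other peaks with at least 5 CPM on average, the ones most like the Abca1 peak at +32.9 kb lay in Tmsb4x (an actin-binding thymosin, r = 0.94), in Tacc1 (r = 0.92) and 35056 bp from Asb3 (r = 0.92). The peak past Hmgcs1 was most like one in Alox5, the lipoxygenase of leukotriene synthesis (r = 0.95), then one in Prr5l (r = 0.94). The Abcg1 peak at +17.9 kb was most like a peak 42137 bp from Irf1, an interferon-regulated transcription factor gene (r = 0.95), and the Nr1h3 peak at -1.8 kb like one in Rab3a (r = 0.95). The Sqle end peak was most like one in Eif4e3 (r = 0.94), the Srebf2 start like one in Tfe3 (r = 0.88) and the Ch25h peak at +4.0 kb like one in Rab37 (r = 0.91).

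Among the 16 comparisons of a pair with each of its singles, 66 of 1248 member tests were called (5.29%, beside 6.48% of all peaks), 23 higher and 43 lower. At the start peaks of Hmgcs1 and Srebf2 and the end peak of Sqle these calls all went down. Adding LPS, HMW, SeV or cGAMP to PAM lowered the Sqle end peak by 0.50, 0.52, 0.43 and 0.55 on the log2 scale (adjusted p of 0.00080, 0.00093, 0.0014 and 4.9e-05). PAM alone had left it near control, and the calls for LPS, SeV and cGAMP were kept with any library left out (HMW was not without P 2 or PH 1, adjusted p of up to 0.074). The Srebf2 start fell by 0.40, 0.52, 0.47 and 0.39 in the same 4 comparisons, of which SeV (adjusted p = 0.00099) was kept with any library left out, and PL, PH and PcG were lost without P 2 or a library of the pair (adjusted p of up to 0.17, 0.24 and 0.068). These comparisons lie within the 13 groups and do not use control.

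At Nr1h3, adding cGAMP to zymosan raised the -1.8 kb peak by 0.74 (adjusted p = 0.00018), within the high-mitochondrial groups and with any library left out, and ZS was lower than SeV alone by 0.64 (adjusted p = 0.00097, but 0.13 without S 1). Among single ligands, 69 of 780 member tests were called (8.85%, beside 11.0% of all peaks), 20 of the 78 peaks between PAM and SeV (24.5% of all peaks) and 0 between SeV and cGAMP, where 0.949% of all peaks were called. At the Nr1h3 peak HMW was lower than cGAMP by 0.66 (adjusted p = 0.00016, with any library left out). PAM was higher than SeV at the Srebf2 start by 0.50 (adjusted p = 0.00035, likewise). Among the 9 comparisons of a triplet with its pairs, 4 of 702 member tests were called (0.570%, beside 1.11% of all peaks), 3 at Hmgcs1 and 1 at Abca1 +10.8 kb, and each was lost with at least 1 library left out.

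Departure from additivity was tested as the pair minus both singles plus control, on the log2 scale. Of 624 member tests, 20 were called (3.21%, beside 5.18% of all peaks), 6 above and 14 below the sum. The Nr1h3 peak at -1.8 kb fell short of it in PL by 1.03 (SE 0.19, adjusted p = 3.1e-05), in PcG by 1.09 (SE 0.19, adjusted p = 1.2e-05) and in ScG by 1.37 (SE 0.19, adjusted p = 5.4e-09), with any library left out. In PcG the pair, at 27.2 and 30.6 CPM, was no higher than PAM alone (29.4 and 31.3 CPM) or cGAMP alone. The Hmgcs1 start fell less in ScG than the sum of both singles, by 0.62 (SE 0.13, adjusted p = 8.8e-05), which became -0.0086 (adjusted p = 0.97) under total-count scaling. In ScG the pair and control are high-mitochondrial groups and both singles are not, so that split and the departure cannot be told apart. In PL, LH, PS and PcG control alone is a high-mitochondrial group, so there too the split and the departure cannot be told apart.

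**Figure D5:**
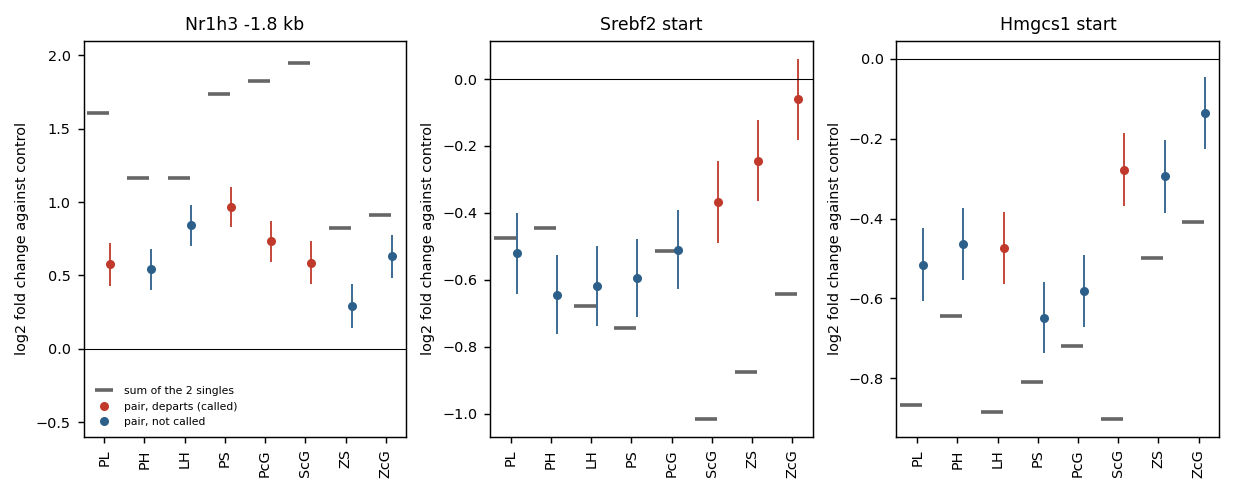
Log2 fold change against control of 8 pairs (points with SE) beside the sum of their 2 single ligands (grey dashes) for the Nr1h3 peak at -1.8 kb and the Srebf2 and Hmgcs1 start peaks; red points depart from the sum with an adjusted p under 0.05. At Nr1h3 each pair lies below its dash, with PL, PS, PcG and ScG called.

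The rest of the pathway was read from start peaks of other genes, in lists whose genes hold no member. In sterol synthesis and uptake, 20 of 21 genes had such a peak, and 131 of 340 tests were called lower (38.5%) and 9 higher. Of tests at all gene starts, 23.3% were called lower and 7.13% higher, and at those with at least 20 CPM 32.5% and 7.32%. The list was not filtered at 20 CPM, and its share of lower calls lay above both. Cyp51, the lanosterol demethylase, fell in 16 stimulations (log2 fold changes from -0.80 to -0.04, 64.2 CPM in control). Msmo1, a sterol methyl oxidase, fell in 13 and Lss, the lanosterol synthase, in 12, whereas Mvk, the mevalonate kinase, and Fdps, the farnesyl diphosphate synthase, were called in 0. For sterol sensing (6 of 6 genes) 36 of 102 tests were lower (35.3%) and 1 higher, with Insig2, which retains SREBP in the endoplasmic reticulum, lower in 14 stimulations and Mbtps2, a protease that cleaves SREBP, in 12.

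For LXR, its partners and targets (11 of 11 genes) 64 of 187 tests were lower (34.2%) and 17 higher. Plin2, a lipid droplet coat protein, was lower in 16 and Scd2, a fatty acid desaturase, in 15, whereas Nr1h2, the LXR beta gene, was higher in 9. For oxysterol metabolism (5 of 5 genes) 24 of 85 were lower (28.2%) and 8 higher: Cyp27a1, a sterol hydroxylase, was lower in 10, Hsd3b7 higher in 8, and Gpr183, the receptor for an oxysterol made from the Ch25h product, lower in 7. For cholesterol esters and transport (7 of 7 genes) 44 of 119 were lower (37.0%) and 7 higher, with Soat1, which esterifies cholesterol, and Lipa, the lysosomal lipase that frees it, each lower in 15. Over all lists the shares of lower calls, 28.2% to 38.5%, lay above the 23.3% of all gene starts. All but that of oxysterol metabolism lay above the 32.5% of strong ones. The shares of higher calls ran from 0.980% to 9.41%, beside 7.13% and 7.32%. No difference from these backgrounds was tested.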

How the data were processed

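The authors deposited a table of whole-number read counts per peak for 36 libraries and the peaks' positions, with no unused columns (0). The submitters' processing notes name Bowtie2 2.2.9, MACS2 (given as 1.4), bedtools and featureCounts, and mm10, without roles; duplicates and read shifting are not given in the sources used here. Libraries had 12 PCR cycles and reads of 42 cycles; intervals cover counting error only.

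Members and lists were chosen with earlier results of these data known. Counts were tested with edgeR 4.0.16 (R 4.3.3, limma 3.58.1): TMM without the mitochondrial peak, a low-count filter at 10 (286 peaks dropped), robust quasi-likelihood, 18 groups in 1 fit (18 residual degrees of freedom, common dispersion 0.020), 60 contrasts, Benjamini-Hochberg within each. The script was tested on simulated data. Named peaks are each member's start peak and up to 3 others called in most stimulations (24 peaks); 7 more were singled out after their values were seen. Peaks most alike had to average 5 CPM. Start peaks of list and marker genes lay within 1000 bp of the gene start (either end without a strand). Alternatives were 2 further scalings, abundance-dependent offsets, the mitochondrial peak kept, DESeq2 1.42.0, no or a stricter filter, a replicate block, only the groups compared, and each library left out, with the dispersion trend of the full fit. Peak sequences were not used here. Some genes of the lists and of the most alike peaks are not reported here.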

Additional observations from a re-analysis of the deposited data

Results flagged for a closer look

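At 20 places a pair departed from the sum of its single ligands on the log2 scale, by the test of that difference itself (edgeR's quasi-likelihood test, adjusted over all peaks). All use the same 2 control libraries, and no explanation was tested. In PL, LH, PS, PcG, ScG and ZcG the mitochondrial split and the departure cannot be told apart. Whichever single library was left out, 6 of the 20 were kept, and 13 were kept under all other settings. The 6 are marked below, and the other 14 were each lost without at least 1 library (adjusted p of up to 0.36).

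At Nr1h3, the peak at -1.8 kb departed in PL by -1.03, PS by -0.77, PcG by -1.09 and ScG by -1.37, all below the sum, and PL, PcG and ScG were called with any single library left out. The Nr1h3 start peak departed in PL by -1.77 (adjusted p = 0.00060, with any library left out), PcG by -1.26 and ScG by -1.51, and ScG was lost without Ctrl 1 (adjusted p = 0.078). The peak at -11.5 kb, inside Acp2, departed in PL by -0.79.

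At Abca1, PL fell short of the sum at +41.1 kb by -1.08, at +37.7 kb by -0.85 (adjusted p = 0.0030, with any library left out) and at +25.5 kb by -2.11. ScG departed at +50.9 kb by -2.27 and at +32.9 kb by 2.10 (adjusted p = 0.019). At the latter each single already left little signal, and the pair, at 1.12 and 0.874 CPM, was as low as cGAMP alone.

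At Hmgcs1 and Srebf2 every called departure was above the sum, that is, a smaller fall than both singles added. These were the Hmgcs1 start in LH (0.41) and ScG (0.62, with any library left out) and the Srebf2 start in ScG (0.65), ZS (0.63) and ZcG (0.58). All 5 were lost under total-count scaling. At Abcg1, LH departed by -3.04 at +15.8 kb, where LPS alone gave 2.83 and 2.05 CPM, HMW 1.84 and 1.72 CPM and the pair 1.30 and 0.476 CPM, and ScG departed by -3.17 at +23.5 kb.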

How the results depend on the processing

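Counts of member calls kept their size within 1.5 times under most settings. Under total-count scaling they were 21 for PAM (11 with TMM), 23 for SeV (15), 25 for cGAMP (16), 32 for PLH (20), 62 for departures from additivity (20) and 11 for triplets against pairs (4), and the share of higher calls over the 17 stimulations was 85.4% instead of 60.7% (76.3% instead of 51.4% of all peaks' calls). With only the groups compared in the fit, zymosan had 1 call (3). Called values that changed sign, all 3 under total-count scaling, were the Hmgcs1 start in PAM (0.013) and in the ScG departure (-0.0086) and the Srebf2 start in LPS (0.070); among values not called, the Srebf2 start reached 0.20 under the same scaling and the Hmgcs1 start 0.028 with abundance-dependent offsets and 0.0071 with only the groups compared. Over single libraries left out, calls ranged from 5 to 11 for PAM, 8 to 16 for LPS, 1 to 6 for HMW, 8 to 11 for cGAMP, 0 to 2 for zymosan, 8 to 17 for PL, 9 to 16 for PH, 10 to 17 for LH, 11 to 14 for PS, 15 to 19 for PcG, 6 to 11 for ZS, 5 to 9 for ZcG, 12 to 20 for PLH, 173 to 262 over all stimulations, 9 to 22 for departures and 1 to 4 for triplets against pairs. Against control, the lowest count came without Ctrl 1 for PAM, LPS, HMW (also H 2), PL, PH (also PH 1), LH (also LH 1), PcG and PLH, without Ctrl 2 for ZcG, without cG 2 for cGAMP, Z 1 for zymosan, PS 2 for PS and ZS 2 for ZS; departures were fewest without Ctrl 1 and triplet calls without ScG 1. Of 348 calls of the 31 peaks named, total-count scaling lost 60, abundance-dependent offsets 37, DESeq2 32, only the groups compared 29, the mitochondrial peak kept 5, median-of-ratios size factors 4 and the filters 0. Same-numbered libraries did not deviate together (r from -0.040 to 0.030 over 153 pairs of groups, 0 above 0.1). That cannot show whether they shared a culture or animal, which the labels do not say. With a replicate block there were 258 calls over the 17 stimulations instead of 262, and 3 of the 348 calls were lost. Peaks with 2 or 3 control counts give wide ratios, and depth limits them.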
